A study of Mus musculus with 9 samples.

Results

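The circular RNAs (circRNAs) described here are those of the liver of mice given saline, defined as the circRNAs with 5 or more back-splice reads in each of the 2 deeply covered saline libraries, control 1 and control 2. They number 2693 of the 11312 circRNAs in the deposited table (23.8%). The study took liver from mice of strain C57 BL6 and wild-type genotype, aged 8 weeks with an average weight of 20 g, in 3 groups of 3 libraries. Of these only the saline group enters here, which the titles place at 6 h. The other groups received acetaminophen, alone or after the prostaglandin analogue dmPGE2, and are not analysed here. Ribosomal RNA was removed from total RNA, the second cDNA strand was marked with dUTP and degraded, and the protocols name no digestion of linear RNA. No label ties a library to an animal, so differences between control 1 and control 2 may be technical or between animals.

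A circRNA forms when the spliceosome joins the 3′ end of an exon to the 5′ end of the same or an earlier exon, a step called back-splicing. The product is a closed ring without a cap or a poly(A) tail, and it withstands exonucleases, so rings can persist in cells that divide rarely, such as hepatocytes. Most rings hold internal coding exons, tend to lie between long introns that can pair with each other, and compete with linear splicing of the same transcript. A read across the back-splice junction identifies a ring, while the rest of its sequence is shared with the linear RNA.

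Control 1 held 154449 back-splice reads over 5077 circRNAs and control 2 held 129971 reads over 4513 circRNAs. The other saline library, control 3, stands apart, with 4362 reads over 739 circRNAs, and it is used only as a check. Over 463 members with a usable value in all 3 saline libraries, the median share of reads from the circular form was 69.1% in control 1, 69.9% in control 2 and 6.67% in control 3. Levels are given as back-splice reads and as CPM, reads per 1000000 back-splice reads of the library. Each ring has 1 junction, so CPM carries no length term. How far the detection of a junction differs between rings was not examined, and the ranking is of detected reads. The 5 reads required correspond to 32.4 CPM in control 1 and 38.5 CPM in control 2.

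The junction sequences of 7 of the most abundant rings and of 1 further abundant circRNA that behaved differently are shown here, because the junction is the only stretch that sets a ring apart from its linear RNA. Each line gives 15 bases of the last exon in lower case, read into 15 bases of the first exon in capitals, 5′ to 3′ on the transcribed strand, from GENCODE transcripts of GRCm38.
Rnf169, mmu_circ_0001605, 7:99935162-99955540, minus strand, exon 4 joined to exon 2: agcgttcctggcaggAGTTTATATTCAGAA
Gigyf2, mmu_circ_0000057, 1:87364104-87380008, plus strand, exon 8 joined to exon 4: gaagaaaagatgtagGCTCCGTGCTCTGTC
Aass, novel_circ_0012103, 6:23107140-23122737, minus strand, exon 11 joined to exon 2: tatgttgaagaaatgCTACCACATTTGAAG
Nfix, mmu_circ_0001704, 8:84771784-84772315, minus strand, exon 2 joined to itself: ttgtccacactccggGATGAGTTCCACCCG
Alg12, mmu_circ_0000635, 15:88811297-88812159, minus strand, exon 7 joined to exon 6: aggctgcacctatatGGCTGACGGTTGCTG
Bckdhb, mmu_circ_0001822, 9:83988776-84012619, plus strand, exon 8 joined to exon 4: gatacagtttgcaagGAAAAGATAGAGTGT
Nr1h4, novel_circ_0000599, 10:89473752-89483524, minus strand, exon 8 joined to exon 4: gaattcgaaagagtgGTTTCTTCCGAAGAA
No host listed, novel_circ_0010359, 4:60069733-60138460, minus strand, Mup7 exon 2 joined to Mup2 exon 3: taaagtccatactgtAAGAGATGAAGAGTG

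The first 7 junctions are absent from every annotated linear transcript. The last is the only 1 of 2475 junction sequences that also occurs unbroken in linear transcripts, namely in 7 transcripts of 4 major urinary protein genes, Mup7, Mup8, Mup13 and Mup17. The match extends to 58 bases on each side of the junction. Major urinary proteins are secreted pheromone carriers that mouse liver makes in great quantity from a cluster of near-identical genes. For novel_circ_0010359, a back-splice between Mup7 and Mup2 and ordinary splicing within a linear Mup transcript therefore cannot be told apart over this stretch. It had 3564 reads in control 1, 1240 in control 2 and 0 in control 3, and it is given beside the others with that limit.

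The saline liver circRNAs were led by a ring of Rnf169, which encodes a RING-finger protein recruited to DNA breaks. This ring had 3093 reads in control 1 and 2761 in control 2, a mean of 20635 ± 861 CPM (SD, n = 2). A ring of Gigyf2, whose protein takes part in translational repression, had 1997 and 1746 reads (13182 ± 356 CPM, SD, n = 2). A ring of Aass, which encodes the enzyme of the first steps of lysine breakdown, had 1721 and 1806 reads (12519 ± 1946 CPM, SD, n = 2). Apart from novel_circ_0010359, these 3 rings took the first places in both libraries, though in different order behind Rnf169.

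The next rings came from genes of quite different roles. Rmdn2, for a microtubule-associated protein, gave 1472 and 1225 reads, and Tmem56 gave 1260 and 1214. Ttc39c gave 1226 and 1197 reads. Nfix, a transcription factor of the nuclear factor I family, gave 1135 and 1185 reads from a ring that is a single exon of 532 bases. Gramd1c, for a protein that moves cholesterol between membranes, gave 969 and 853 reads, and Alg12, for a mannosyltransferase of N-glycan assembly, gave 952 and 748.

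Several of the 20 most abundant rings came from genes of liver metabolism and its control. Bckdhb, a subunit of the dehydrogenase of branched-chain keto acids, had 812 and 761 reads in its leading ring. Mlxipl, which encodes the glucose-responsive transcription factor ChREBP, had 736 and 712 reads. Nr1h4, which encodes the bile acid receptor FXR, had 678 and 658 reads. The growth hormone receptor gene Ghr had 637 and 586 reads in its leading ring, whose 3′ end is not an annotated exon end. Adk, for adenosine kinase, had 713 and 514 reads, and Gbe1, for the glycogen branching enzyme, had 600 and 541. Each of these 6 rings differed by 1.17-fold or less in CPM between the libraries, and none was called by the test given below. Adk, Mlxipl and Nr1h4 came close to its cutoff (adjusted p = 0.0512, 0.0537 and 0.0601 by Fisher's exact test). The Tmem56 ring was called at 1.14-fold, so a ring not called is not thereby steadier.

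The rest of the 20 were a ring of Snrk, a protein kinase of the SNF1 family, with 705 and 636 reads, and a ring of Psd3, an exchange factor for ARF6, with 590 and 508 reads. A circRNA in the pseudogene Mug-ps1 had 831 and 698 reads, and its assignment is uncertain because murinoglobulin genes are closely related. A circRNA listed as intronic to Fgfr2 and Zranb1 together (mmu_circ_0001636) had 653 and 589 reads. Of the 20, 18 were also among the 20 most abundant circRNAs of each library, and 18 were listed in control 3. The 2 not listed there were novel_circ_0010359 and the leading Ghr ring.

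**Figure D1:**
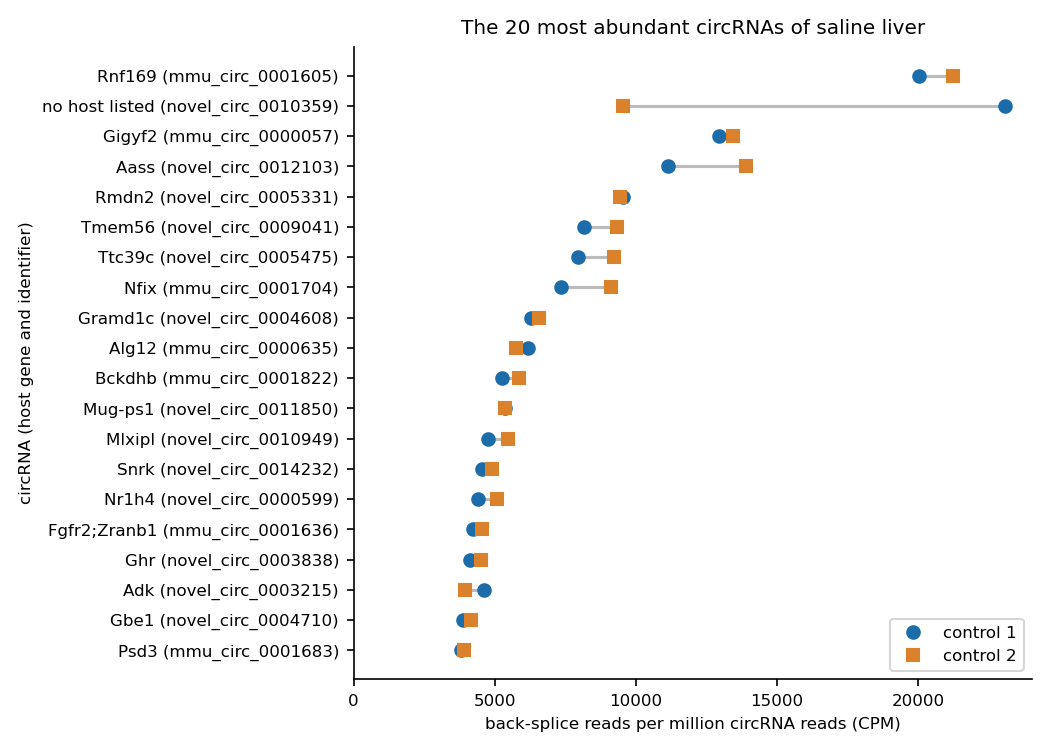
Level of the 20 most abundant circRNAs (CPM, linear axis) in control 1 (circles) and control 2 (squares), joined by a grey line. For most the symbols lie close together, while novel_circ_0010359 stood at 23076 CPM in control 1 and 9541 CPM in control 2.

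The abundance of rings was graded rather than dominated by a few. The 10 most abundant circRNAs held 11.3% of the reads of control 1 and 10.8% of those of control 2, or 9.71% and 10.5% with novel_circ_0010359 left out. The 100 most abundant held 32.2% and 33.1%. It took 315 circRNAs to reach 50% of the reads in control 1 and 291 in control 2. Most members were rare. The median was 20 reads in control 1 and 18 in control 2, and the quartiles of mean CPM were 81.8, 131 and 267. Only 251 members reached 100 reads in control 1 and 212 in control 2.

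Members held 85.8% of back-splice reads in control 1 and 88.2% in control 2. The 198 circRNAs just inside the threshold, with 5 reads in the lower library, had a median of 10 reads in the higher one. The 167 just outside, with 4 reads, had a median of 9. The lowest count above 0 in each library was 2, so a circRNA listed at 0 may still have had a read. A circRNA could miss the rule without being rare. Listed in control 1 and at 0 in control 2 were 2075 circRNAs, 126 of them with 20 or more reads. Listed in control 2 and at 0 in control 1 were 1511, 53 of them with 20 or more reads.

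The levels of the members in the 2 libraries were correlated across circRNAs (Pearson r of log2 CPM 0.83, Spearman rho 0.726, n = 2693, a description of points that share 2 libraries). Closeness followed depth. Of 1693 members with 5 to 19 reads in the lower library, 67.6% agreed within 2-fold in CPM. The share was 91.6% of 805 members with 20 to 99 reads and 97.9% of 195 members with 100 or more. Fisher's exact test (two-sided, Benjamini-Hochberg adjusted p under 0.05) called 387 of 2693 members (14.4%) different between the libraries. Of these, 165 were higher in control 1 (6.13%) and 222 higher in control 2 (8.24%). The test compares 2 libraries and their counting error, not conditions. At an unadjusted p under 0.05 it passed 730, and 274 of those called differed by more than 2-fold.

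Among the 20 most abundant, 5 were called: novel_circ_0010359 and the rings of Aass, Tmem56, Ttc39c and Nfix. For the last 4 the difference was between 1.14-fold and 1.25-fold, with control 2 higher in each. The smallest p-values of all members belonged to novel_circ_0010359 (2.42-fold higher in control 1) and to rings of Mtus1, Ctif, Glt1d1 and Zfp277. The Mtus1 ring novel_circ_0013672, from a microtubule-associated tumour suppressor gene, had 426 and 564 reads (1.57-fold higher in control 2). The Ctif ring novel_circ_0005893, from a translation factor gene, had 108 and 201 (2.21-fold higher in control 2). The Glt1d1 ring novel_circ_0010880 had 295 and 416 (1.68-fold higher in control 2), and the Zfp277 ring novel_circ_0002010 had 114 and 26 (3.69-fold higher in control 1). A level at these rings is known no better than that.

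**Figure D2:**
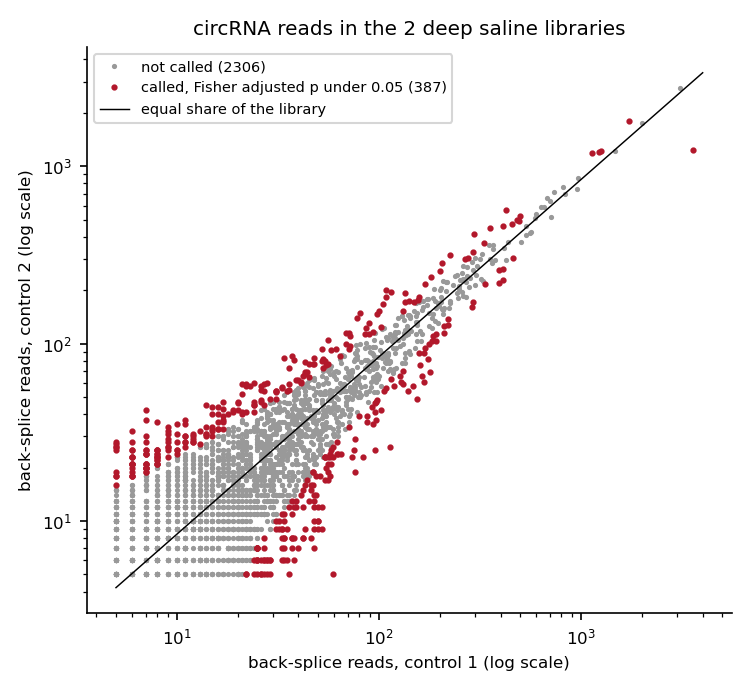
Back-splice reads of each of the 2693 members in control 1 (x axis) and control 2 (y axis), both on log scales; the line marks an equal share of both libraries. Members called by Fisher's exact test (red, 387) lie at the edges of the cloud at every depth, and the cloud narrows as reads rise.

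In control 3, 598 of the 2693 members were listed (22.2%). They were 7.86% of the members with 5 to 19 reads in the lower deep library, 38.6% of those with 20 to 99 and 79.0% of those with 100 or more. Of the reads of control 3, 83.4% fell on members. Its order resembled that of the deep libraries (Spearman rho 0.617 over 598 members, as a description), although its circular shares did not.

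Most members were rings of annotated exons. By the deposited features, 2557 were exonic (94.9%), 110 intronic and 26 intergenic. Exonic members held 93.5% of member reads in control 1 and 95.1% in control 2. Both ends of 2441 members (90.6%) were exon ends of a single annotated transcript. The intronic class rarely meant a ring of intron alone. Of its 110 members, 97 had 1 end at an annotated exon end and 84 listed 2 or more segments. Among the most abundant of the class were circRNAs with neither end at an annotated exon end, at Crp, the C-reactive protein gene, with 186 and 180 reads (novel_circ_0006986), and at Cfhr3, a complement factor H-related gene, with 120 and 116 (novel_circ_0006735). A circRNA at the sulfotransferase gene Sult2a8 had 116 and 104 reads and a single listed segment with 1 end at an exon end (novel_circ_0012920). The intergenic class was dominated by novel_circ_0010359. The class held 3.40% of member reads in control 1 and 1.84% in control 2, but 0.726% and 0.766% without that circRNA.

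The 2635 members with 1 host gene came from 1511 genes. A host with 1 ring was the rule (942 genes, 62.3%), while 301 genes had 2 rings, 144 had 3, 54 had 4 and 70 had 5 or more. The 70 genes with 5 or more rings accounted for 443 members. In hosts of 2 or more rings, the top ring held a median of 62.8% of the host's CPM, a value that cannot fall below 50% where there are 2 rings. In the 268 hosts of 3 or more rings the median was 53.2%, and the top ring held over 50% in 148. It was the same ring in control 1 and control 2 in 437 of 569. Of the 1693 rings of such hosts, 1201 (70.9%) used an end that another ring of the gene also used, 798 sharing the 5′ end and 618 the 3′ end.

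**Figure D3:**
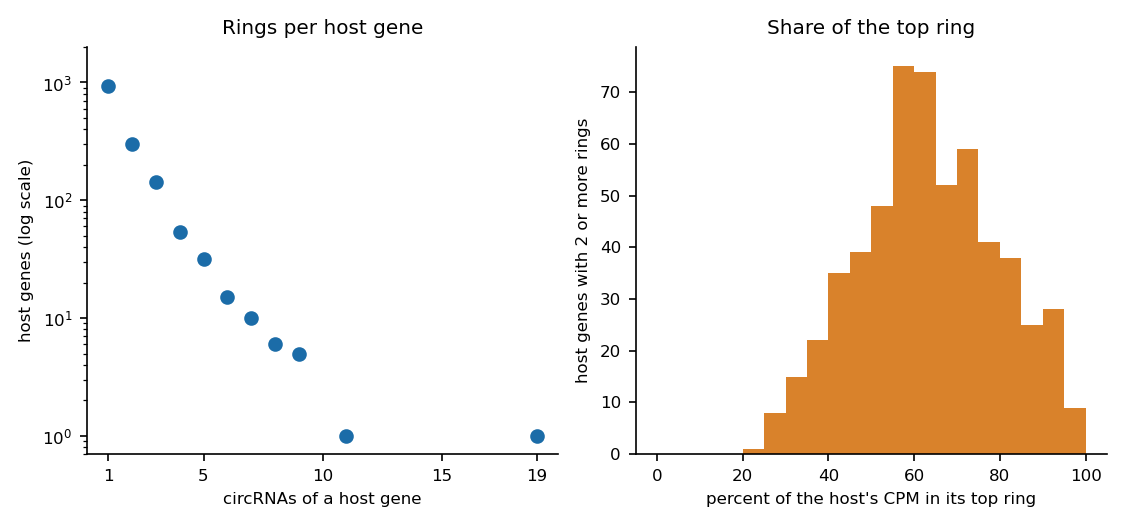
Left: number of host genes (log axis) by how many member circRNAs they have, from 942 genes with 1 ring to 1 gene with 19. Right: for the 569 host genes with 2 or more rings, the percent of the host's CPM in its most abundant ring, with a median of 62.8%.

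Vwa8, which encodes a mitochondrial protein with a von Willebrand factor A domain, had the most rings, 19. They used 10 different 5′ ends and 11 different 3′ ends, and 6 of them began at the same exon. Its leading ring, novel_circ_0003657 (exon 17 as first exon), had 183 reads in control 1 and 139 in control 2, 21.5% of the gene's CPM. The others ranged down to 6 and 7 reads. The second, novel_circ_0003636, had 164 and 66 reads and was called different between the libraries (adjusted p = 2.16e-05 by Fisher's exact test). No Vwa8 ring was dominant, and circular shares averaged over the 2 libraries lay between 4.53% and 38.7% over all 19.

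Ghr had 11 rings, with 637 and 586 reads in the leading one (novel_circ_0003838) and 565 and 426 in the next (novel_circ_0003821). These 2 rings begin at the same 5′ end and differ in how far they run, 7661 against 93756 bases of genome. Among the other 9 Ghr rings reads ran from 6 to 160 in control 1. Bckdhb had 8 rings. Its second ring, novel_circ_0014841, had 507 and 375 reads and starts 2 exons before the leading ring. A ring over the extent of both, novel_circ_0014842, had 50 and 59 reads.

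Another 5 hosts had 9 rings each. Rabep1, an effector of the endosomal GTPase Rab5, had a leading ring by mean CPM with 352 and 362 reads, 34.2% of its CPM, while another of its rings led in control 2 with 370. Ehmt1 and Ash1l, which encode histone methyltransferases, had leading rings with 232 and 213 reads and with 257 and 196 reads. Gphn, which encodes the scaffold protein gephyrin, had a leading ring with 142 and 143 reads. Egfr, the epidermal growth factor receptor gene, had only low rings, none above 38 reads in control 1 or 53 in control 2. At the other extreme, the abundant Aass and Nr1h4 rings were the only members of their genes.

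Exonic rings were short chains of exons spread over long stretches of genome. The features list a median of 3 exons, and 79.1% of exonic members had 2 to 4. Reads grew with listed exons. The median was 17 reads in control 1 and 15 in control 2 for rings of 2 exons, 25 and 21 for 4 exons, 40 and 34 for 5 exons, and 71 and 68 for the 44 rings of 6 to 10 exons. Single-exon members had medians of 16 and 15. Completeness of the listing rose in the same order. The listed exons reached both ends in 21.5% of single-exon members, 81.4% of those with 2 exons and 100% of those with 6 to 10. Reads by annotated exon number are not given here, so the trend holds for listed exons only. The most exons were 9, in a ring of Pdia5, a protein disulfide isomerase gene, with 37 and 36 reads (novel_circ_0004537). Rings of Dennd1b, Rmdn2, Ubap2, Picalm, Acy1 and Bckdhb followed with 7 each, tied for second place.

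The listed exons are not always the whole ring. Among the 2441 members within 1 transcript, the annotated exons between the ends equalled the listed number in 1204, exceeded it in 1140 and fell short of it in 97. The annotated median was 4 and the highest 16. Of 344 members listed with 1 exon, only 74 had an exon that spans the ring. The Aass ring lists 6 exons where the annotation has 10 between its ends, and the Usp6nl ring novel_circ_0008683 lists 3 where it has 13. Which exons a ring retains was not measured by junction reads.

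The deposited spliced length had a median of 364 bases over exonic members, with quartiles of 287 and 458, against a median genomic span of 8367 bases. For all 2061 exonic members with a novel_circ identifier, it equalled the sum of the listed segments less 1 base per segment, and it never exceeded 1098 bases. For the 496 with an mmu_circ identifier, the form used in public circRNA catalogues, it equalled the full genomic span in 46, and the longest entries include such cases. Rings of Lncpint, a long noncoding RNA host, carry spliced lengths of 41421 bases (mmu_circ_0001452, 497 and 522 reads) and 31376 bases (mmu_circ_0001455, 96 and 41 reads), each equal to its span. Over members of all classes, the next was an intronic Fars2 entry of 24787 bases (mmu_circ_0000452, 44 and 18 reads), from the gene of a mitochondrial tRNA synthetase. Summed segments gave 200 to 600 bases in 84.2% of exonic members.

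The longest spans were those of a ring of the sorting nexin gene Snx29 (novel_circ_0004278, 97817 bases, 20 and 30 reads), a ring of the forkhead gene Foxn3 (novel_circ_0002449, 97681 bases, 176 and 148 reads) and the Usp6nl ring (94211 bases, 20 and 8 reads). Single exons were among the shortest. A ring of Adgrl2, an adhesion receptor gene, had 173 bases with 10 and 13 reads, and 1 of the initiation factor gene Eif3a had 202 bases with 6 and 5 reads. The Foxn3 ring shows that a long span was compatible with a high count.

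Position in the transcript was far from even. In 844 of the 2441 members within 1 transcript (34.6%) the first exon was exon 2 of the transcript, and in 338 (13.8%) exon 3. Exon 2 makes up 5.87% of the exons that follow an intron, last exons included, in the 1506 transcripts that hold these rings. The share rose with abundance, from 31.4% at 5 to 19 reads in the lower library to 37.2% at 20 to 99 and 51.7% at 100 or more. The leading rings of Rnf169, Aass, Tmem56, Ttc39c, Nfix and Snrk all begin at exon 2. Exon 1, which has no splice acceptor, was the first exon in 10 members, and the last exon of the transcript closed 3.

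Introns next to the rings were long. The intron upstream had a median of 9804 bases and the intron downstream 7741 bases, against 1957 bases for all 25649 introns of the same transcripts. In 1875 of 2427 members (77.3%) both flanking introns were longer than the median of the transcript's other introns, and in 117 (4.82%) neither was. First introns tend to be long, and members starting at exon 2 had an upstream median of 19096 bases. Members starting elsewhere still had 6371 bases. The medians were 15506 upstream and 13089 downstream for members with 100 or more reads in the lower library. Flanks of single abundant rings varied. The Alg12 ring had 2294 bases upstream and 4575 downstream, both below the member medians, and the Nfix ring had 1038 bases upstream and 43816 downstream.

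**Figure D4:**
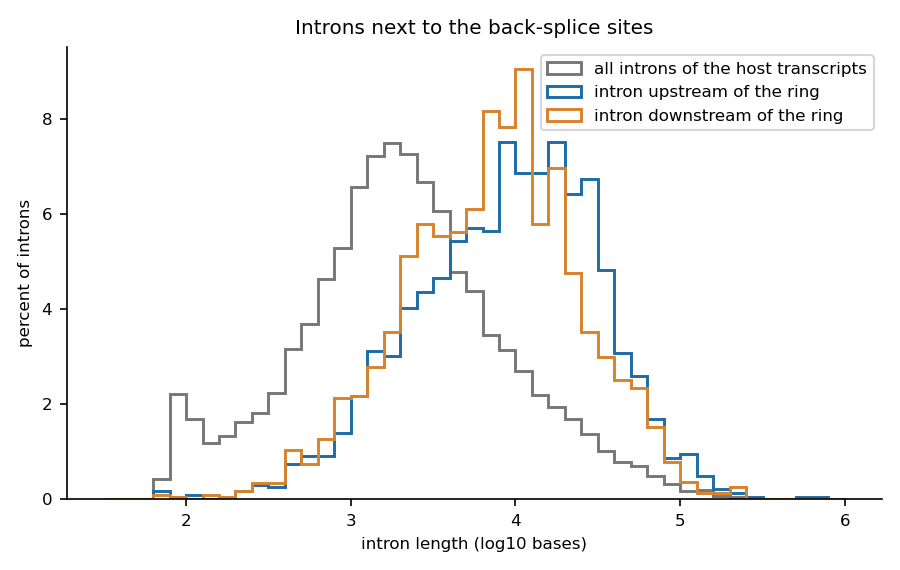
Lengths of the introns just upstream and just downstream of member rings and of all introns of the same transcripts (x axis log10 bases, y axis percent of introns of each kind). The flanking introns, with medians of 9804 and 7741 bases, are shifted to the right of all introns, with a median of 1957 bases.

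The sequence content of the rings was mostly coding. Of 2424 members in coding transcripts, 1994 (82.3%) lay wholly within the coding region by the annotated exons, 398 (16.4%) included the start codon and 31 the stop codon. Of the wholly coding rings, 761 (38.2%) had an annotated length that is a multiple of 3, and so an open frame that could run on past the junction unless a stop codon lies in it. The last base before the back-splice was G in 80.6% of junction sequences, and in 80.5% of all exon ends of the same transcripts. At that base the donor exons were like other exons.

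The circular share sets a ring against its linear RNA. It was taken as 2 times the junction reads over that number plus the non-junction reads, on the assumption that the deposited non-junction reads were counted at both ends. It could be computed in both libraries for 2534 members. The other 159, including the Aass, Tmem56, Ttc39c and Adk rings and novel_circ_0010359, had lists of reads that could not be split. The lists that fail are those with a high non-junction count, so the values lean towards circular. The median share was 44.5% in control 1 (quartiles 23.2% and 69.1%) and 43.1% in control 2 (21.7% and 69.0%). If non-junction reads were instead counted at only 1 end, the plain ratio of junction reads over junction plus non-junction reads applies. By that ratio the medians were 28.6% and 27.5%. Which of these holds is not known.

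Liver rings thus covered the whole scale. In both libraries the share was above 50% for 893 members, above 90% for 88 and below 10% for 159. The libraries differed by a median of 8.04 points per member (Spearman rho 0.846, as a description). The share was higher in abundant rings, as follows in part from its numerator. The median over members of the mean share was 34.2% at 5 to 19 reads in the lower library, 59.7% at 20 to 99 and 85.5% at 100 or more. Over the 463 members with a value in all 3 saline libraries, control 3 had a median of only 6.67%. Control 1 had 69.1% and control 2 had 69.9% over the same members. The shares given here therefore describe control 1 and control 2 only.

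**Figure D5:**
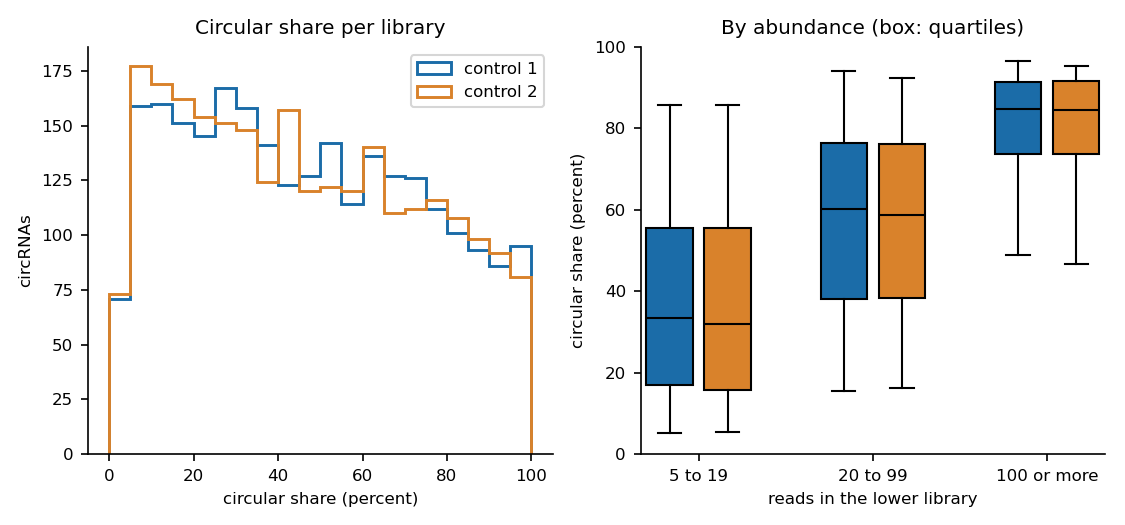
Left: number of members by circular share (5-point bins) in control 1 and control 2, spread over the whole scale. Right: circular share in control 1 (blue) and control 2 (orange) by reads in the lower library, with boxes at the quartiles, a line at the median and whiskers at the 5th and 95th percentiles; it is highest for 100 or more reads.

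Among members with 50 or more reads in both libraries, the highest shares belonged to rings of Fam228b, Rad52, Rasa2, Alg12 and Gigyf2. The Rad52 ring mmu_circ_0001516, from a gene of homologous recombination, had 560 and 422 junction reads against 9 and 16 non-junction reads. Its share was 99.2% in control 1 (95% Wilson interval 98.5% to 99.6%) and 98.1% in control 2 (97.0% to 98.9%). The Fam228b ring novel_circ_0002043 had 57 and 50 junction reads against 0 and 1. The Rasa2 ring mmu_circ_0001829, from a gene for a Ras GTPase-activating protein, reached 96.5% and 98.7%. Alg12 stood at 97.9% and 97.2%, and Gigyf2 at 97.7% and 96.9%. At these sites nearly all reads counted in control 1 and control 2 came from the back-splice. The intervals cover counting error only, since reads are not independent molecules.

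Other abundant rings ranged more widely. The leading Rnf169 ring stood at 95.4% in control 1 (94.8% to 95.9%) and 97.3% in control 2 (96.9% to 97.7%), the Nfix ring at 94.6% and 94.2% and the Mlxipl ring at 95.5% and 94.2%. The leading Bckdhb ring was lower, at 70.9% and 69.8%, and so was the leading Ghr ring, at 67.1% and 67.6%. Nr1h4 stood at 80.6% and 82.6%, below the first 3 and above the last 2. In each of these 6 rings the back-splice reads outnumbered the non-junction reads in both libraries. The non-junction reads of the Rnf169, Bckdhb, Ghr and Nr1h4 rings come from lists that had run together and were regrouped. The intervals do not cover an error of that step.

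The lowest shares at this depth came from Rnf169, Bckdhb, Lncpint, Tedc2 and Ddi2. The Rnf169 ring novel_circ_0013327 (exon 3 as first exon) had 76 and 82 junction reads against 883 and 805 non-junction reads, a share of 14.7% and 16.9%. It shares exon 3 with the leading Rnf169 ring, so a read of splicing inside that ring counts as non-junction here. The Bckdhb ring novel_circ_0014838 had 58 and 92 reads and shares of 13.1% and 19.5%. The Lncpint ring mmu_circ_0001454 had 51 and 53 reads and shares of 15.4% and 17.3%. Tedc2 stood at 22.0% and 18.7%, and Ddi2, an aspartic protease gene of the proteasome system, at 19.1% and 23.2%. Except for Lncpint, the non-junction reads of these rings come from regrouped lists. A non-junction read inside a larger ring is not a linear read, so the share of a ring that overlaps another can understate its circular part.

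That limit bears on hosts of many rings. The median share was 53.1% and 53.7% for the 906 rings that are the only one of their host, and 62.9% and 61.2% for the 528 top rings of other hosts. It was 29.8% and 28.0% for the 1046 further rings of those hosts. In 409 of 524 hosts with values for the top ring and another (78.1%), the top ring also had the highest share. The top ring was picked by its junction reads, which are also the numerator of the share. This order is therefore in part fixed by the choice, and 301 of the 569 hosts of 2 or more rings have only 2. Reads of the top ring that fall inside the others were not separated from linear reads, and their part in this order was not tested.

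Host genes were also described by lists of liver functions, chosen with earlier results of these data known. Of 21992 annotated protein-coding genes, 6.74% had a member, and the median circular share over all members was 44.4%. Amino acid and urea cycle enzymes had members in 25 of 57 genes, with 61 rings that held 3.34% of the reads of control 1 and 3.84% of control 2. Aass and Bckdhb led them. Dpyd, which breaks down pyrimidines, had 498 and 476 reads over 8 rings, and Asl, the urea cycle enzyme argininosuccinate lyase, had 299 and 305 in 1 ring. The median share of this list was 14.2% over the 34 rings with a value, and 27 had none.

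Enzymes and regulators of fatty acids, sterols and bile acids had members in 25 of 67 genes and a median share of 13.97% over 21 of 51 rings. Nr1h4 led them, and other hosts of this list were Scp2, a lipid transfer protein gene (197 and 139 reads over 6 rings), and Slc27a2, a fatty acid transporter gene (184 and 132). Drug metabolism and hepatic transport had members in 14 of 50 genes and a median share of 11.3% over 25 of 34 rings. The transporter genes Slco1b2 (526 and 483 reads over 5 rings) and Abcc2 (468 and 388 over 6) led it, ahead of the cytochrome P450 genes Cyp2c70 (251 and 198) and Cyp3a13 (127 and 82).

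Secreted plasma proteins, whose mRNAs are among the most abundant in hepatocytes, had members in 14 of 57 genes and 0.617% and 0.630% of the reads. The leading hosts were the carboxylesterase gene Ces1c (216 and 241 reads), Crp (198 and 192), Mug2 (133 and 89) and the kininogen gene Kng2 (134 and 78). The median share was 24.8% over 10 of 23 rings. Genes of glucose and glycogen metabolism had members in 8 of 30, led by Gbe1 (698 and 644 reads over 6 rings), the insulin receptor gene Insr (194 and 139), Pfkfb1 (159 and 102) and the phosphorylase kinase gene Phkb (112 and 137). Their median share was 36.5%.

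Lists of regulatory genes had higher median shares than the metabolic lists, with more of their rings measurable. Hepatocyte transcription factors had members in 6 of 30 genes, with a median share of 45.0%. Nfix led with 1229 and 1296 reads over 4 rings, followed by the thyroid hormone receptor gene Thrb (306 and 237), Prox1 (161 and 104) and Nfib (127 and 114). Chromatin regulators had members in 27 of 50 genes and a median share of 59.8% over all 62 rings. Chd2, a chromatin remodeller (526 and 493 reads), Ash1l (415 and 348), Asxl2 (336 and 363) and Arid1b, a SWI/SNF subunit (304 and 285), were highest. Splicing and circRNA handling factors had members in 10 of 44 genes and a median share of 61.1% over 20 rings, with Rbm33 (437 and 368), Ptbp3 (365 and 294), Hnrnpu (173 and 104) and Mbnl2 (101 and 92) in front. No ring of these 3 lists lacked a share. The rings that lack one in the metabolic lists have high non-junction counts, so the medians of those lists are over their less linear rings.

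Of 64 hosts that are widely reported for circRNAs across tissues, 37 had a member, with 87 rings that held 8.63% of the reads of control 1 and 9.26% of control 2. The highest were Rnf169 (3219 and 2881 reads over 5 rings), Gigyf2 (2119 and 1821 over 7), Tmem56 (1421 and 1270 over 3) and Ttc39c (1323 and 1264 over 3). In each of the 4 a single ring held 92.2% of the gene's CPM or more. Hosts were 57.8% of this list, beside 6.74% of all protein-coding genes. The list was chosen with earlier results of these data known, and rings of these 4 hosts are among the 20 most abundant. Its host count and read share are therefore in part built into the choice, and no conclusion is drawn from them.

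Markers of cell types were set beside the 6.74% of protein-coding genes with a member. Of 18 hepatocyte markers, 4 were hosts: Cyp1a2 (111 and 70 reads), the tyrosine aminotransferase gene Tat (54 and 83), the urea cycle gene Cps1 (73 and 61) and Ahsg (6 and 12). Other secreted proteins of the list, Alb, Apoa1 and Ttr among them, had no member. Of 15 sinusoidal endothelial markers, 4 were hosts, led by the mannose receptor gene Mrc1 (191 and 159 reads), then F8 (53 and 41), Stab2 (22 and 16) and Pecam1 (11 and 17). Adgre1, which encodes the macrophage marker F4/80, was the only host of 14 Kupffer cell markers (91 and 106 reads), and Ets1 the only one of 16 lymphocyte and neutrophil markers (6 and 6). None of 13 stellate cell, 10 cholangiocyte and 10 erythroid and platelet markers had a member. At 7.14% and 6.25%, the Kupffer cell and the lymphocyte and neutrophil lists stood near the share of all genes, and lists this short can hold no host at that share, so these counts show nothing about the cells present. In whole liver, fewer cells of a type and fewer rings per cell cannot be told apart.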

How the data were processed

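Liver RNA of saline-treated mice was analysed from 1 deposited table of circRNA counts. Per the file headers, it gives back-splice read counts, a TPM value, position, host gene, overlapped features, spliced length and span. The counts are whole numbers the authors left unscaled. The TPM columns were not used here. The submitters' processing notes name HISAT2 and the build GRCm38 (mm10) but give them no role. For the circRNA caller and its filters, the sources used here give no name. The count columns of the saline group carry a code that no label explains and were assigned by elimination, keeping their numbers 1 to 3.

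Members were the circRNAs with at least 5 reads in control 1 and control 2. The members, gene lists and named circRNAs were chosen with earlier results of these data known. The 20 highest by mean CPM were named. So were the 8 hosts with most rings (of those tied at 8 rings, the 1 with the highest CPM), the 5 highest and 5 lowest in circular share at 50 or more reads, the extremes of exon number and length (3 each, with ties), the 5 largest differences between libraries, and the 4 highest hosts of each list. Some items that this rule takes are not reported here. Further intronic and intergenic examples and rings of named hosts were chosen after their values were seen.

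Starts were raised by 1, and ends were placed in GENCODE M21, which also gave the junction sequences. In 516 members the list of non-junction reads had been turned into 1 number and was regrouped in digits of 3, and in 159 this was not possible. The same steps on the lists of junction reads gave 76 regrouped and 37463 other items, of which 0 differed from the count columns. Fisher's exact tests used SciPy 1.17.1. They were also run on simulated counts, with a known fold change set for some members and counting error as the only other variation. Such counts cannot show how the test behaves where libraries vary beyond counting error. Alternatives used edgeR 4.0.16 and DESeq2 1.42.0 in R 4.3.3 for scaling only. The depth of 154449 and 129971 reads limits the precision: at 5 reads, counting error alone is large.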

Additional observations from a re-analysis of the deposited data

How the results depend on the processing

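No paired analysis was possible because no groups are compared. The planned ranking by deposited TPM was not run, because only the count columns were matched to the saline group. Some alternatives (without novel_circ_0010359, lists as listed only, annotated exons, complete segments, summed segments, rings within 1 transcript, and the 20-read check of exon 2 and of control 3) were chosen after seeing the data. The 20 most abundant circRNAs all stayed among the 20 with TMM and DESeq2 scaling, and 18 to 20 did so with 1 library left out. The number of members was 1793 at 10 or more reads in both libraries and 1000 at 20 or more, and 4062 to 4563 when 1 library sufficed. The 10 most abundant held a mean of 11.01% of reads, and 10.1% without novel_circ_0010359. Fisher's exact test called 202 members at 20 or more reads, where fewer were tested (1000, 20.2%). Host genes with 2 or more rings were 37.7% of all, 39.3% with no minimum, 32.0% at 10 or more reads, 36.2% for rings within 1 transcript, and 42.3% to 43.5% with 1 library left out. The mean number of listed exons was 2.63, with 2.91 at 20 or more reads, 2.77 in exonic members, 4.04 by annotated exons, 2.90 where the listed segments reach both ends, and 2.42 with either library left out. The median spliced length of 364 bases became 410.5 at 20 or more reads, 380.0 where the segments reach both ends, 357 by summed segments, and 335 to 339 with 1 library left out. The median circular share of 44.4% was 29.0% by the plain ratio, 64.3% at 20 or more reads, 52.6% without regrouped lists, and 43.1% to 44.5% with 1 library left out. Control 3 listed 46.5% of members at 20 or more reads, and exon 2 was the first exon in 40.0% of them. Of the 8 named hosts, ring numbers moved by over 1.5 times for Gphn and Egfr (5 each at 10 or more reads) and for Ehmt1 (14 without control 1). Depth limits every value for members near 5 reads, whose presence in both libraries itself depends on counting error.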

Other observations

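Some circRNAs with many reads in 1 deep saline library were listed at 0 in the other and so are no members. The highest of these in control 1 was novel_circ_0011085 of Cdk8, a kinase of the Mediator complex, with 142 reads. The highest in control 2 was mmu_circ_0001052 of Hipk3, a kinase gene known for an abundant single-exon ring in many tissues, with 195 reads. CircRNAs listed in control 1 and not in control 2 held 12.7% of the reads of control 1, and those listed in control 2 and not in control 1 held 10.2% of the reads of control 2. In control 3 the highest count, 277 reads, belonged to novel_circ_0001740, which was listed at 0 in both deep libraries. Of the 20 most abundant circRNAs of control 3, 14 were among the 20 most abundant members.

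Members with identifiers of a circRNA catalogue (mmu_circ) numbered 509 of 2693 (18.9%) and held 34.5% of member reads in control 1 and 34.7% in control 2. Their median level was 240.0 CPM and their median circular share 63.5%, against 118 CPM and 39.8% for members with novel_circ identifiers. Of the 20 most abundant members, 7 had catalogue identifiers, so rings such as those of Aass and Rmdn2 carry a novel_circ name despite high counts.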
